A study of Hordeum vulgare with 4 samples.

Results

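The 197 genes described here are those with the highest share of reads in wild-type barley leaves. They were selected on measured values: isoform counts were summed per gene and divided by the library total to give CPM, a count relative to its library total, and the 63254 genes of the table were ranked by the mean CPM of both wild-type libraries. The first 200 ranks were taken. From these, 3 genes were left out because their lower wild-type CPM was at least 8 times the higher CPM of the overexpression libraries. The study compared leaves of non-transformed plants of barley (Hordeum vulgare) cultivar Golden Promise with leaves of transgenic plants carrying HvHSFA2e, a heat shock transcription factor that heat induces, under constitutive expression, with 2 libraries of each genotype. All 4 libraries carry a treatment label of 42 °C for 30 minutes, whereas the treatment protocol gives 40 °C for 4 hours on 2-week-old plants and the extraction protocol describes leaves of 5-week-old plants without mention of heat. Which exposure these leaves had is uncertain, and both genotypes carry the same label. The sources used here do not give the promoter of the transgene, the number of transgenic lines, or whether replicate libraries were made from different plants, so p-values measure only the spread between these libraries.

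Heat shock factors are transcription factors that bind short repeated elements in promoters and raise the transcription of chaperone genes when proteins unfold. In green leaves the most abundant nuclear transcripts are typically those for photosynthesis, such as the small subunit of Rubisco, the enzyme that fixes carbon dioxide, and the chlorophyll-binding proteins that collect light. A small number of such genes commonly takes a large part of all messenger RNA in a leaf. Genes carry identifiers of a transcript assembly here, and neither the files nor the reference table used pairs them with names, so roles of single members are not given. Members are named by their wild-type rank, and 3 identifiers are printed. The level of HvHSFA2e itself was not analysed here for the same reason.

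The wild-type libraries held 6030406 (replicate 1) and 22631196 (replicate 2) reads, the overexpression libraries 14488461 and 14128916. Every member was deeply read: the lowest count of any member in any library was 1212 reads, and all 197 members passed the filter on low counts. Counting error was therefore small for all of them, and the spread between libraries set the precision. In leaf RNA, fewer cells of a type and less RNA per cell cannot be told apart.

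Reads were concentrated in the first ranks. The gene at rank 1 had 24385 and 26286 CPM in the wild-type libraries (replicates 1 and 2, in this order throughout) and 14857 and 13082 CPM in the overexpression libraries. Rank 2 had 22349 and 23847 CPM in the wild type and 17340 and 17512 CPM in the overexpression plants, where it was the most abundant gene. Rank 3 had 21470 and 22503 CPM in the wild type and 11960 and 10069 CPM in the overexpression plants. In all 3 genes both overexpression libraries lay below both wild-type libraries. Rank 4 had 13307 and 12943 CPM in the wild type against 9912 and 8408 CPM, and rank 5 had 12683 and 12762 CPM against 4711 and 7266 CPM. The overexpression libraries differed more from each other at rank 5 than the wild-type libraries did, yet the groups stayed apart. Ranks 6 to 9 lay between 7539 and 9644.6 CPM in the wild-type libraries and between 4779 and 8316 CPM in the overexpression libraries, without overlap within any of these genes. Rank 10 had 6257 and 10368 CPM in the wild type, a wide spread, and 3283 and 2773 CPM in the overexpression plants, where it held rank 36. In edgeR (TMM scaling) 7 of these 10 genes were called lower, and ranks 2, 7 and 8 were not called, with log2 fold changes of -0.66 ± 0.23, -0.53 ± 0.23 and -0.63 ± 0.22 (SE). Over all members the median of the mean CPM was 1192 for the wild type against 904 for the overexpression plants.

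**Figure D1:**
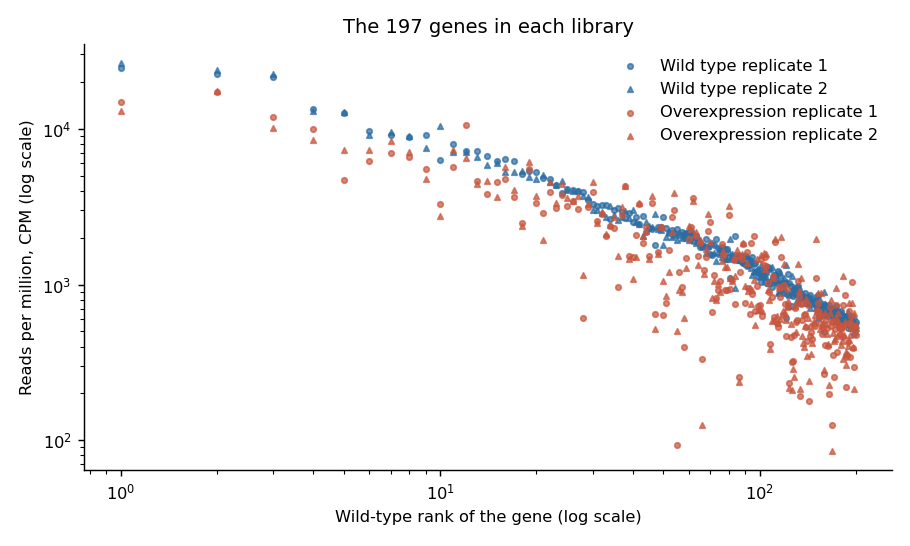
CPM of each of the 197 genes in each library (y axis, log scale) against the gene's wild-type rank (x axis, log scale), with circles for replicate 1 and triangles for replicate 2. The wild-type points (blue) follow the ranking by construction, while the overexpression points (red) scatter around and mostly below them, down to 85.8 CPM.

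CPM counts reads and does not correct for transcript length. By the authors' length-corrected expression signal, 135 of the 197 members were among the 200 highest genes of the wild type, and the lowest member held rank 857. Ranks 1, 3, 5 and 4 held places 2 to 5 by signal. The gene at CPM rank 84, with 1 isoform, was first by signal in the wild type. Its reads per unit of signal, a measure of relative length, were 0.0317 of the median gene, the lowest of all members, and it took 3.45% and 2.97% of the wild-type signal and 1.63% and 2.62% of the overexpression signal. Its CPM was 2059 and 949 in the wild type against 748 and 1132 with the transgene, so the groups overlapped. Its wild-type signal was 37436 and 31770, a smaller drop between replicates than in CPM. Its reads per unit of signal thus differed between libraries, and its relative length and place by signal are uncertain. The members as a group were not short: their median relative length was 1.01, against 1.00 over the 10089 genes with at least 50 reads in every library, and 96 of the 197 members were below that median.

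The limits of the selection fell within a continuous range. The genes at ranks 199 and 200 had wild-type means of 552 and 550.7 CPM, and ranks 201 and 202, just outside, had 550.6 and 549 CPM. At the other limit, the lower wild-type CPM was 16.7, 14.6 and 8.09 times the higher overexpression CPM in the 3 genes left out (ranks 147, 153 and 161). The nearest members, at ranks 86, 66 and 169, reached 5.61, 5.27 and 5.06 times.

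The members took 45.7% and 45.6% of the reads in the wild-type libraries and 34.0% and 34.5% in the overexpression libraries. The means were 45.6% ± 0.0818 and 34.3% ± 0.390 (SD, n = 2 each), a difference of -11.4 percentage points. The first 10 ranks contributed most to it, with 14.1% ± 0.482 in the wild type against 8.70% ± 0.0599 with the transgene. Ranks 11 to 50 went from 15.4% ± 0.469 to 12.4% ± 0.241, ranks 51 to 100 from 8.40% ± 0.136 to 6.87% ± 0.0310, and the 97 members ranked 101 to 200 from 7.74% ± 0.0424 to 6.25% ± 0.178 (SD, n = 2 each). By length-corrected signal the members held 39.0% ± 0.340 in the wild type against 28.2% ± 0.851 with the transgene (SD, n = 2 each). An exact permutation test of 2 libraries against 2 cannot pass 0.05 (two-sided), and the wild-type levels chose the members, so these shares are a description.

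The opposite change in share lay mostly at the bottom of the wild-type ranking. Genes ranked 5001 and beyond in the wild type took 12.4% ± 0.165 of the reads there against 23.9% ± 0.103 with the transgene (SD, n = 2 each), a difference of 11.5 percentage points. Genes ranked 1001 to 5000 differed by 2.27 points, and those ranked 401 to 1000 by -0.777 points.

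The size of both shifts depended on which genotype supplied the ranking. Ranked on the overexpression mean, the first 200 genes took 41.9% ± 0.256 of the wild-type reads and 39.0% ± 1.81 of the overexpression reads, and genes from rank 5001 took 14.9% ± 0.255 and 15.9% ± 1.29 (SD, n = 2 each). The first 200 genes of each ranking thus took the larger share in the wild type: the overexpression mean differed by -11.6 points under the wild-type ranking and by -2.88 points under its own. Ranked on the mean of the 4 libraries, these shares were 44.7% ± 0.129 and 38.1% ± 1.35 (SD, n = 2 each), a difference of -6.60 points. Genes from rank 5001 of that ranking differed by 3.27 points. Of the 197 members, 141 were also among the first 200 genes of the overexpression ranking, which is 71.6% of the members and 70.5% of that list. The first 10 genes of the overexpression plants were all members, and 8 of them held a wild-type rank of 10 or better. By the first 400 overexpression ranks 184 members were included, and the lowest member, at wild-type rank 169, held overexpression rank 1373. The 59 genes that took the places of the others had a median wild-type rank of 1604, and 1 of them stood at rank 61541. Genes of equal CPM were ranked in the order listed, so a rank this low may not be exact.

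**Figure D2:**
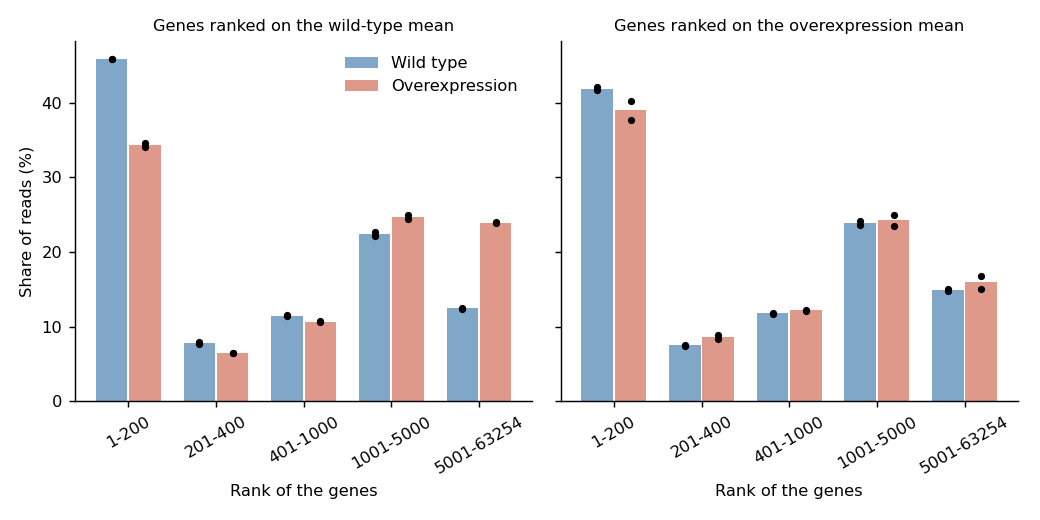
Share of reads in percent (y axis) taken by genes of each rank class (x axis), ranked on the wild-type mean (left) or on the overexpression mean (right); bars are means of 2 libraries and dots single libraries. On the left the first class goes from 45.9% to 34.3% and the last from 12.4% to 23.9%, while on the right the same classes go from 41.9% to 39.0% and from 14.9% to 15.9%.

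Most members were read less often in the overexpression plants. In 127 members both overexpression libraries lay below both wild-type libraries, in 24 both lay above, and in 46 the genotypes overlapped. Over all 25095 genes tested, 24.5% lay below and 48.7% above in this way. On CPM with TMM scaling, which sets library sizes so that most genes do not differ, 154 members lay below and 10 above, beside 33.6% and 38.4% of all genes tested. The median log2 ratio of mean CPM over the members was -0.44, with quartiles of -0.75 and -0.03. In 31 members the overexpression mean was at most 0.5 times the wild-type mean, in 8 of these at most 0.25 times, and the highest ratio was 1.996, at rank 150.

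An edgeR fit was made across all genes. With TMM scaling, 103 of 197 members were called lower and 1 higher (quasi-likelihood test, p adjusted by Benjamini-Hochberg over all genes, under 0.05), while 16.1% of all genes tested were called lower and 18.6% higher. On library totals alone 76 members were lower and 9 higher, beside 10.2% and 25.2% of all genes. The higher genes were thus 0.962% of the members called under TMM and 10.6% under library totals. The median log2 fold change of members was -0.69 under TMM and -0.44 under library totals, and that of all genes tested was 0.06 and 0.32, a shift of 0.26 between the scalings. The wild-type libraries set the ranking and are one side of this contrast, so the counts describe the members and are not a test of them. Fits that leave out a library keep only 1 library in a genotype. The count of lower members fell below 103 when a wild-type library was left out and rose above it when an overexpression library was. Counts over all genes tested varied between these fits too, and fell in both directions when a wild-type library was left out. Without wild-type replicate 1 or 2 the median log2 fold change of members stayed at -0.70 and -0.68. Leaving out overexpression replicate 1 or 2 gave medians of -0.60 and -0.75.

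**Figure D3:**
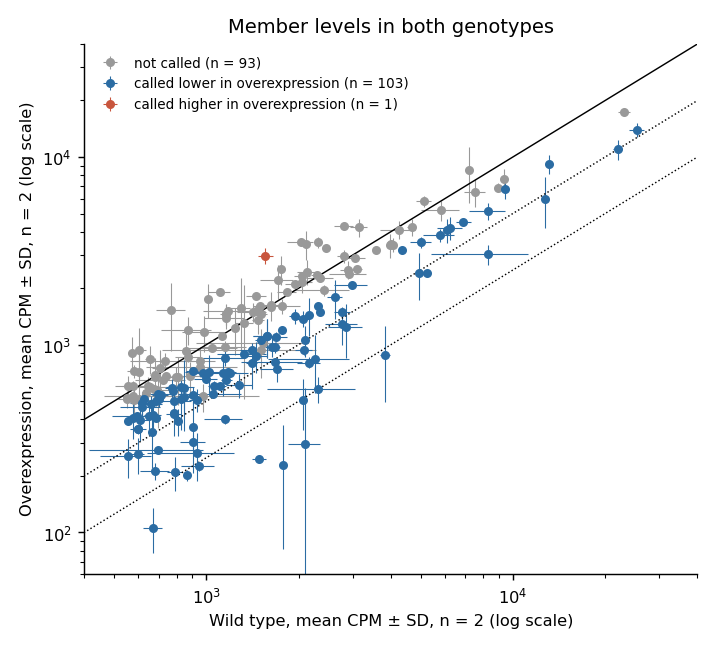
Mean CPM ± SD (n = 2 libraries) of each member in the overexpression plants (y axis, log scale) against the wild type (x axis, log scale); the solid line marks equality, and the dotted lines ratios of 0.5 and 0.25. Blue points are the 103 members called lower, the red point is the 1 member called higher, and grey points are the 93 not called; 1 downward error bar, at rank 55, runs past the axis.

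The member called higher was TRINITY_GG_2511_c0_g1, at wild-type rank 80 and overexpression rank 38. It had 1497 and 1624 CPM in the wild type and 2779 and 3178 CPM in the overexpression plants, with a log2 fold change of 0.69 ± 0.20 (SE) under TMM scaling. Both overexpression libraries lay above both wild-type libraries. The call was lost when wild-type replicate 1 or 2 was left out, with edgeR adjusted p of 0.248 and 0.172 and log2 fold changes of 0.57 and 0.76, and it held without either overexpression library, at 0.82 and 0.47. The gene at rank 150 had a larger fold change, 0.77 ± 0.31 (SE), and was not called: its overexpression libraries stood at 1107 and 1963 CPM, above 827 and 710 CPM in the wild type but far from each other.

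The 2 members with the largest negative fold changes among those called were TRINITY_GG_23521_c0_g2 (rank 66) and TRINITY_GG_13680_c0_g1 (rank 55). The gene at rank 66 had 1755 and 1816 CPM in the wild type and 333 and 125 CPM in the overexpression plants, a log2 fold change of -3.24 ± 0.41 (SE). The gene at rank 55 had 2272 and 1926 CPM in the wild type and 93.0 and 502 CPM in the overexpression plants, a log2 fold change of -3.02 ± 0.72 (SE). In both genes both overexpression libraries lay below both wild-type libraries. The log2 ratio of overexpression replicate 2 over replicate 1 was 2.43 at rank 55 and -1.41 at rank 66, so the size of the change is poorly known. At rank 55 the overexpression libraries differed by a larger ratio than that between the lower wild-type and the higher overexpression library. With overexpression replicate 1 or 2 left out, the log2 fold change was -2.27 and -4.86 at rank 55, and -4.04 and -2.79 at rank 66. Without wild-type replicate 1 or 2 the gene at rank 55 was not called (edgeR, adjusted p = 0.0899 and 0.106), and that at rank 66 still was. The changes at ranks 169 and 86 were nearly as large and more even between libraries. Rank 169 had 637 and 703 CPM against 126 and 85.8 CPM, and rank 86 had 1431 and 1539 CPM against 255 and 237 CPM, with log2 fold changes of -2.93 ± 0.21 and -2.85 ± 0.18 (SE).

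Over the members, replicates of the wild type lay closer together than those of the overexpression plants. The median absolute log2 ratio between replicates was 0.12 for the wild type against 0.21 for the overexpression plants, and that between the genotype means was 0.50. Outside the members the gap between genotypes in replicate ratio was smaller or reversed. It was 0.13 against 0.14 for ranks 201 to 400 and 0.14 against 0.17 for ranks 401 to 1000. For ranks 1001 to 5000 it was 0.17 against 0.16, and beyond 0.43 against 0.38. In 138 members the ratio between genotypes exceeded the ratio between replicates in both genotypes, with 117 of these lower and 21 higher in the overexpression plants. Of all genes tested, 19.9% were lower and 39.5% higher by this measure. The widest gap between wild-type replicates was 2.18-fold, at rank 121 (613 and 1334 CPM), followed by ranks 84 and 159. Between overexpression replicates the widest gap was 5.40-fold, at rank 55, followed by rank 66 and by rank 94 (1858 and 746 CPM). More than a 2-fold gap was found in 2 members in the wild type and in 3 in the overexpression plants.

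**Figure D4:**
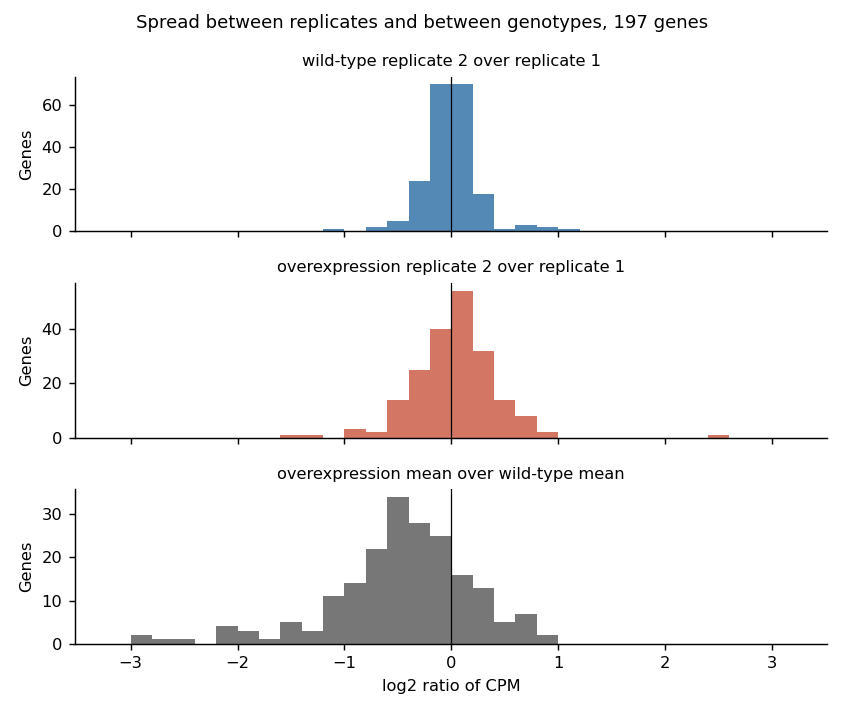
Number of members (y axis) by log2 ratio of CPM (x axis) between the wild-type replicates, between the overexpression replicates, and between the genotype means. The replicate ratios centre near 0 (medians -0.02 and 0.04), whereas the ratios between genotypes centre at -0.44 and reach beyond -2.

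The order of the members was similar in both genotypes. Across the 197 members, which are not independent and were chosen from a narrow upper range, Spearman's rho of CPM was 0.959 between the wild-type libraries, 0.953 between the overexpression libraries and 0.796 to 0.817 between genotypes. Pearson's r of log2 CPM was 0.978, 0.957 and 0.836 to 0.849 in the same order.

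A ranking on 1 wild-type library leaves the values of the other unused by the selection. Whether these libraries were made from different plants is not given, so the unused library may not be independent of the ranking. The values below are a description and not a test. The 200 genes ranked highest in replicate 1 took 45.6% of the reads of replicate 2 and a mean of 34.2% of the overexpression reads. Against wild-type replicate 2 their median log2 ratio was -0.38 in CPM and -0.65 under TMM scaling, and both overexpression libraries lay below it in 137 genes and above it in 35, beside 30% and 56.9% of all genes tested. Ranked on replicate 2 and set against replicate 1, the median log2 ratio was -0.45 in CPM and -0.68 under TMM scaling, with 144 genes below and 33 above, beside 31.8% and 55.7% of all genes tested. The median log2 ratio of the unused wild-type library over the one that ranked the genes was -0.03 and 0.00. This ranking still took the genes from the wild type, and the overexpression ranking gave smaller differences. Of the 200 genes of the overexpression ranking, edgeR (TMM) called 58 lower and 50 higher, beside 16.1% and 18.6% of all genes tested. Their median log2 fold change was -0.21.

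Under the wild-type ranking the shift was not limited to the members. Among the 200 genes ranked 201 to 400, edgeR (TMM) called 103 lower and 2 higher, with a median log2 fold change of -0.58 against -0.69 for the members. Among the 600 genes ranked 401 to 1000 it called 313 lower and 37 higher, with a median of -0.57. These classes were ranked on the wild type as the members were, and their direction depended on it. The share of reads of ranks 201 to 400 differed by -1.39 points under this ranking. It differed by 1.12 points ranked on the overexpression mean and by 1.08 ranked on the mean of the 4 libraries. For ranks 401 to 1000 the differences were -0.777, 0.379 and 0.764 points in the same order. The quartiles of the members (-1.001 and -0.29) and of ranks 201 to 400 (-1.11 and -0.17) overlapped widely, and the difference between these classes was not tested. Within the members the median was -0.86 for ranks 1 to 10, -0.55 for ranks 11 to 50, -0.75 for ranks 51 to 100 and -0.64 for ranks 101 to 200, so it did not follow the rank step by step. On library totals the same medians were -0.60, -0.29, -0.51 and -0.39.

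The selection did not use how the reads of a gene fell on its isoforms. The members were assembled as 746 isoforms, with a median of 3 per gene. A single isoform was assembled for 35 members, 2 to 4 for 111, 5 to 9 for 42 and 10 or more for 9, up to 35 at rank 65. Despite these numbers the reads were concentrated: 176 members had 1 isoform with at least 10% of the gene's reads, and 21 had 2 or more. In the 162 members with several isoforms the leading one held a median of 99.0% of reads in the wild type against 98.9% with the transgene. In 0 members did the leading isoform change between the genotypes, judged as the same isoform in both libraries of a genotype and another in the other genotype. The same count over all genes was not made here, so this is not read as a trait of the members.

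Isoform usage was tested with edgeR's diffSpliceDGE over all genes with at least 2 isoforms past the filter. It was called different in 33 of the 158 members tested (20.9%), against 9.4% of all 6849 genes tested (adjusted p under 0.05). The Simes test called 19 of the 158, and with isoforms under 10% of the gene's reads left out 2 of 21 were called. With the replicate number added to the model 4 were called. The shares of all genes called by these alternatives were not counted. In the main test the share called followed the read level of the genes. It was 18.4% for ranks 201 to 400, 16.9% for ranks 401 to 1000, 10.6% for ranks 1001 to 5000 and 7.43% beyond. The higher share among the members therefore stood in a row with that of their neighbours, and whether it differs from theirs was not tested. Of the 33 members 16 were also called lower as whole genes and 17 were not called. Leaving out 1 library, which keeps only 1 in a genotype, lowered the number of members called sharply each time. The shares of all genes called in those fits were not counted. Reads shared by similar isoforms are assigned by an estimate, so minor isoforms carry that uncertainty too.

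Changes of usage were mostly small. The median absolute change in the share of the leading isoform was 2.01 percentage points over the 33 members, with 12 members under 1 point, 13 over 5 points and 6 over 10 points. The leading share was lower in the overexpression plants in 18 of the 33. The calls at ranks 65, 2 and 119 held with each library left out in turn, and 23 of the 33 held in none of these fits.

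The smallest adjusted p belonged to rank 65, the member with 35 isoforms (edgeR diffSpliceDGE, adjusted p = 3.31e-12, and at most 0.00155 with a library left out). Its leading isoform held 57.7% and 51.7% of the reads in the wild type against 34.0% and 31.6% with the transgene, and the next isoform 24.5% and 30.4% against 14.3% and 17.9%. Several minor isoforms had larger shares with the transgene. Its isoform i20 had 0 and 147 reads in the wild type against 1819 and 1760 with the transgene, i95 had 0 and 87 against 1508 and 1883, and i51 had 0 and 0 against 838 and 855. As a whole the gene was not called different between the genotypes.

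Rank 2, with 11 isoforms, had an adjusted p of 7.18e-07 (edgeR diffSpliceDGE; at most 0.0177 with a library left out). Its leading isoform held 90.7% and 91.0% in the wild type against 89.7% and 88.0% with the transgene. Its isoform i2 had 0 and 9 reads in the wild type against 1233 and 2992 with the transgene, or 0.491% and 1.21% of the gene's reads. Rank 119 had an adjusted p of 0.000389 (edgeR diffSpliceDGE; at most 0.0339 with a library left out). Its isoform i3 had 0 reads in both wild-type libraries, among 30073 reads of the gene, which allows a share of up to 0.00998% (3 reads; counting error only). In the overexpression plants it had 845 and 862 reads, 5.89% and 4.52% of the gene. Only this isoform and i51 of rank 65 were unread in both wild-type libraries with at least 1% of the gene in both overexpression libraries. In the opposite direction there were 0. Between single libraries, 4 to 11 isoforms were unread in a wild-type library with at least 1% in an overexpression library, and 0 to 5 the reverse. Between the wild-type replicates there were 2 each way. Between the overexpression replicates 1 isoform was unread in replicate 1 and 0 in replicate 2. Such counts are not corrected for the depth of the libraries, which differed most between the wild-type replicates. The share over all isoforms was not counted, and the difference between directions was not tested.

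The calls at ranks 75 and 92 followed by adjusted p. At rank 75 the leading isoform held 98.7% and 98.6% in the wild type against 95.3% and 94.4% with the transgene (edgeR diffSpliceDGE, adjusted p = 0.00114), and at rank 92 it held 99.2% and 99.0% against 99.5% and 99.5% (adjusted p = 0.00124). Each of these calls held in 1 of the 4 fits that left out a library. The largest change of a leading share was at rank 189, singled out after its values were seen. There the leading isoform held 56.3% and 49.8% in the wild type against 81.3% and 79.7% with the transgene (edgeR diffSpliceDGE, adjusted p = 0.0119, but 0.0570 to 0.201 with a library left out).

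**Figure D5:**
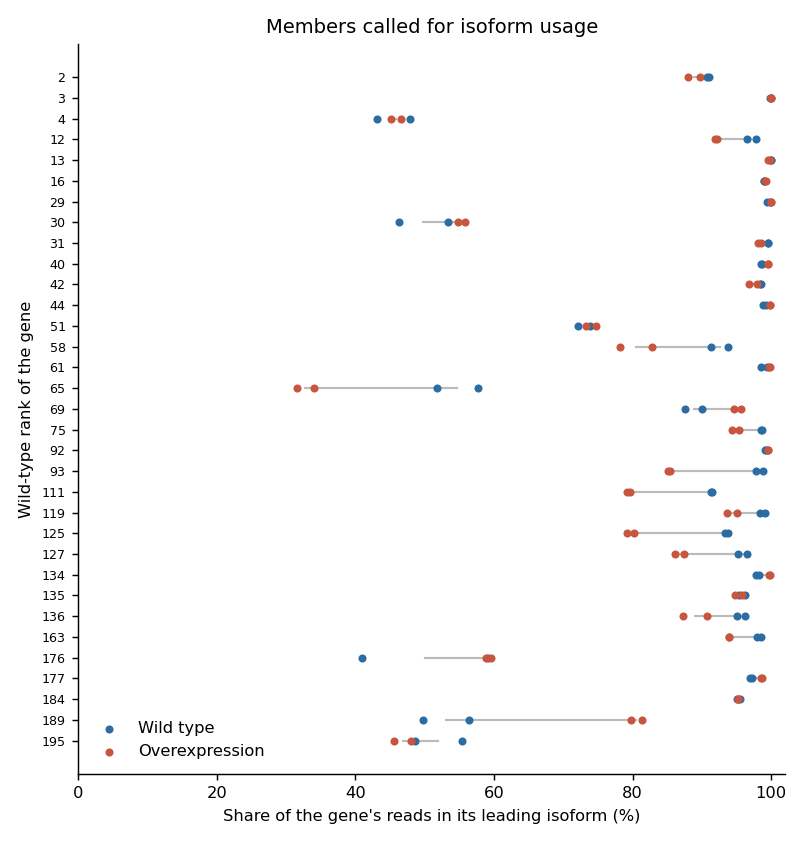
Share of each gene's reads in its leading isoform, in percent (x axis), for the 33 members called for isoform usage, listed by wild-type rank (y axis); dots are single libraries (blue wild type, red overexpression) and grey lines join the genotype means. In 14 genes the mean leading share is at least 95% in both genotypes, in 15 it is under 90% in at least 1, and the largest shifts are those at ranks 189 (53.1% to 80.5%) and 65 (54.7% to 32.8%).

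The members came from 194 partitions of the assembly, a partition being a group of overlapping reads on the genome in Trinity's genome-guided mode. Only 3 partitions held 2 members. In the first, ranks 18 and 130 had log2 fold changes of -1.37 ± 0.19 and -1.001 ± 0.16 (SE, TMM), both called lower. In the second, ranks 79 and 131 had -0.74 ± 0.24 and -0.62 ± 0.22, with the first called lower and the other not. In the last, ranks 37 and 183 had -0.17 ± 0.20 and 0.40 ± 0.26, neither called. Whether such pairs are pieces of 1 gene or neighbours was not tested.

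Some members repeated each other's values. Ranks 78 and 79, of different partitions, had identical CPM in every library: 1684 and 1462 in the wild type against 927 and 1288 with the transgene. Ranks 103 and 105 agreed within a log2 ratio of 0.0065 in every library, at 1188 and 1129 CPM in the wild type and 1327 and 1588 CPM in the overexpression plants for rank 103. These 2 pairs were the ones within a tolerance of 0.02 in log2 ratio in all 4 libraries, and whether each pair is 1 gene counted in 2 places was not tested.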

How the data were processed

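RNA was sequenced from leaves in 4 libraries, with a SMARTER mRNA-Seq kit per the labels' protocols. STAR, Bowtie2, RSEM and DESeq2 are named in the submitters' processing notes, without versions or roles; no genome build is named in the sources used here. The authors deposited expected counts per isoform, as RSEM estimates them, and an expression signal per gene, which per the file headers and names is TPM scaled with a TMM factor per library. The other 2 deposited tables were not used.

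Expected counts were summed per gene and rounded. Genes were kept with filterByExpr (minimum count 10, minimum total 15) and tested with edgeR 4.0.16 (R 4.3.3): quasi-likelihood test, TMM, genotype as the factor, Benjamini-Hochberg adjustment over all genes tested, adjusted p under 0.05. The SE of a log2 fold change is its size over the root of the F statistic. Isoform usage was tested with diffSpliceDGE (gene-level F test). Both steps were checked on simulated data; there the usage test made more false calls than its nominal 5%, so single usage calls are to be read with the results of leaving out a library. DESeq2 1.42.0 and limma 3.58.1 on log2(signal + 1) or log2(signal + 0.1) were alternatives.

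Identifiers were printed for members called by edgeR with the largest fold change, up to 2 in each direction; other members were described by rank: the first 10, those at the limits of the selection, the 5 smallest adjusted p of usage, the widest replicate gaps and shared partitions. Members and rules were chosen with earlier results of these data known. The labels share replicate numbers between genotypes, and a replicate block was an alternative. Planned gene lists were not counted, because identifiers are not paired with names.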

Additional observations from a re-analysis of the deposited data

How the results depend on the processing

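Without a library, 22 to 149 members were lower and 0 to 10 higher in edgeR, with median log2 fold changes of -0.75 to -0.60, and isoform usage was called in 4 to 9 members. The member called higher was not called when a wild-type library was left out, and no other tool was run there. Such fits assume that the lone library varies like the other genotype's. Higher members numbered 4 by DESeq2, 2 by limma with either pseudocount, 9 on library totals and 3 on totals of genes outside the members. They numbered 3 with at least 50 counts in 2 libraries and 2 without a filter. On library totals 25.2% of all genes tested were higher, and the shares of all genes called by the other alternatives were not counted. On library totals the median was -0.44. Ranked on the overexpression libraries, 58 of 200 genes were lower and 50 higher, beside 16.1% and 18.6% of all genes tested. For these 200 genes the median was -0.21, the share of reads differed by -2.88 points and 2 leading isoforms differed. Ranked on signal, 3 were higher, the share differed by -10.9 points and 1 leading isoform differed. Signal in place of reads gave -10.8 points. Usage was called in 19 members by the Simes test and in 2 of 21 testable with isoforms under 10% left out, and the shares of all genes called there were not counted. The deviations of same-numbered libraries from their genotype means had a correlation of 0.00239 over 25095 genes. With 2 libraries of each genotype this cannot decide whether the numbers mark a shared batch. With a replicate block 108 members were lower, 2 higher, and usage was called in 4. The shares of all genes called with this block were not counted. Over all results and alternatives, 57 values stayed within 1.5 times the reported count, or within 1 SD between replicates for a median or share, and 32 did not; the causes were not tested. The overlap with the first 200 overexpression genes is complete by construction when that ranking is used. The shallowest library, with 6030406 reads, still gave every member over 1000 reads.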
